A study of Mus musculus with 13 samples.

Results

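Regions with differing 5-hydroxymethylcytosine (5hmC) at 9 collagen genes of cartilage were examined in mouse knee cartilage. A region belonged to a gene where the authors' deposited tables named that gene as its nearest gene. Of 181833 regions listed in 3 tables, 113 belonged to the 9 genes: 38 to Col11a1, 20 to Col5a1, 17 to Col27a1, 10 to Col2a1, 8 each to Col9a1 and Col11a2, 7 to Col9a3, 5 to Col9a2 and 0 to Col10a1. The MUT DMM group came from mice labelled TET-/-, the WT DMM and WT sham groups from mice labelled TET1+/+, and all were males of the mixed strain B6;129S4, sampled 6 weeks after surgery. DMM is destabilisation of the medial meniscus, an operation that leads to osteoarthritis of the knee; per the treatment protocol the medial meniscus was taken out, while in sham joints the knee was only opened. The same protocol places controls on the opposite leg and gives the age as 4 to 6 months, whereas the design text gives 3 to 4 months. The sources used here do not give how the Tet1 gene was disrupted, in which cells, or how many animals stand behind a library. Mutant sham joints and the control for background were not analysed here, and no background was taken off. Genotype was thus compared under the same surgery only after DMM, in MUT DMM against WT DMM. MUT DMM and WT sham differ in both genotype and surgery, which cannot be told apart in that comparison.

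5hmC is made when TET enzymes oxidise 5-methylcytosine, and it is found in gene bodies and enhancers of many differentiated cells. The collagen fibril of cartilage is built mainly of type II collagen, with type XI collagen inside it, where it helps to start fibrils and to limit their width, and with type IX collagen bound to its surface. Type V chains are close relatives of type XI chains and can assemble with them, type XXVII is a fibrillar collagen of developing cartilage and growth plates, and type X is made by hypertrophic chondrocytes. The readout was DNA modification and not RNA, so the tissue named in the labels could not be checked by marker expression, and a level at a collagen locus says nothing of that collagen's transcript.

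5hmC was read at CCGG sites by reduced representation hydroxymethylation profiling (RRHP), in which MspI cuts CCGG unless glucose has been added to 5hmC there. The sites are thus part of the sequence read out, and the stretch before the Col27a1 start of the RefSeq promoter table is shown because, of the promoter windows found for these genes, it alone overlapped a listed region. It comes from RefSeq (GRCm38.p6, plus strand, chr4:63215162-63215411), and capitals mark CCGG, which reads the same on both strands.
Col27a1: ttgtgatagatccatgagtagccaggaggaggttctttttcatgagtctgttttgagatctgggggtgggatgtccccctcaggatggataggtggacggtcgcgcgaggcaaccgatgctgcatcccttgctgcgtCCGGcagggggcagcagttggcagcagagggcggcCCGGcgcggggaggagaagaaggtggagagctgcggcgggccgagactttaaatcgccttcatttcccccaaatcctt
This start lies inside the RefSeq bounds of the gene, which begin at position 63214009, and distances from genes given further on are measured from such bounds. The 2 sites lie 113 and 78 bases before the start in the promoter table, at chr4:63215299-63215302 and chr4:63215334-63215337. Windows of this length were found for 7 of the 9 genes (8 windows, since Col9a1 has an additional start), and CCGG occurred in those of Col9a2, Col5a1 and Col27a1, with 3, 4 and 2 sites. Of all 32851 RefSeq windows of 250 bases before a gene start, 47.1% held a CCGG. The windows of Col9a1, Col11a1, Col11a2 and Col10a1 held none, so in those bases the method had no site to read.

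The values are the authors' normalized counts per region. The deposited cell of joined values carries no replicate number, so a library's name here is its place in that cell. The 8 distinct libraries differed widely in depth. Set against WT sham, WT DMM 1 held 4726 reads in the listed regions, with 436852 and 925241 in the other WT DMM libraries and 563233 to 2187392 in the sham libraries. A single read of WT DMM 1 was worth 15.7 normalized counts there, so a count of 0, which allows up to 3 reads, allowed a level of up to 47.0. The limit for WT DMM 1 was 28.7 where MUT DMM was compared with WT DMM. One MUT DMM library, here MUT DMM A, was deposited under 2 entries with the same values. It is counted once in the library values, means ± SD and limma fits given here. The other, MUT DMM B, was shallow, and a count of 0 in it allowed a level of up to 10.7 in MUT DMM against WT DMM and up to 28.3 in MUT DMM against WT sham, against 0.702 and 2.21 for MUT DMM A. These limits cover counting error only. The authors' deposited MUT DMM means count MUT DMM A under both entries. At Col2a1 chr15:97979021-97979220 against WT DMM, the MUT DMM mean was 1.5 as deposited and 2.01 over distinct libraries. Whether the deposited p-values also count it under both is not given, and the MUT DMM calls rest on those p-values.

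At the cartilage collagens, called regions were mostly higher after DMM in wild-type joints. In MUT DMM joints they were mostly lower than in both wild-type groups. Each of these directions was also that of most called regions in the whole table. Counts by gene and type further on are to be read beside those whole-table directions. A region is called here where the authors' deposited table gives an adjusted p under 0.05. In WT DMM against WT sham, 19 of the 20 listed collagen regions were called (background over the whole table, 99.7%), 16 of them higher (background 93.2%) and 3 lower (background 6.53%). Between MUT DMM and WT DMM, 42 of 43 were called (background 98.9%), 9 higher (background 34.2%) and 33 lower (background 64.7%). Between MUT DMM and WT sham, all 50 were called (background 99.3%), 13 higher (background 43.2%) and 37 lower (background 56.1%). The tables list only regions that had passed the authors' window p, and higher regions made up 84.2%, 21.4% and 26% of the collagen calls in the 3 tables, beside 93.4%, 34.6% and 43.5% of all calls.

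**Figure D1:**
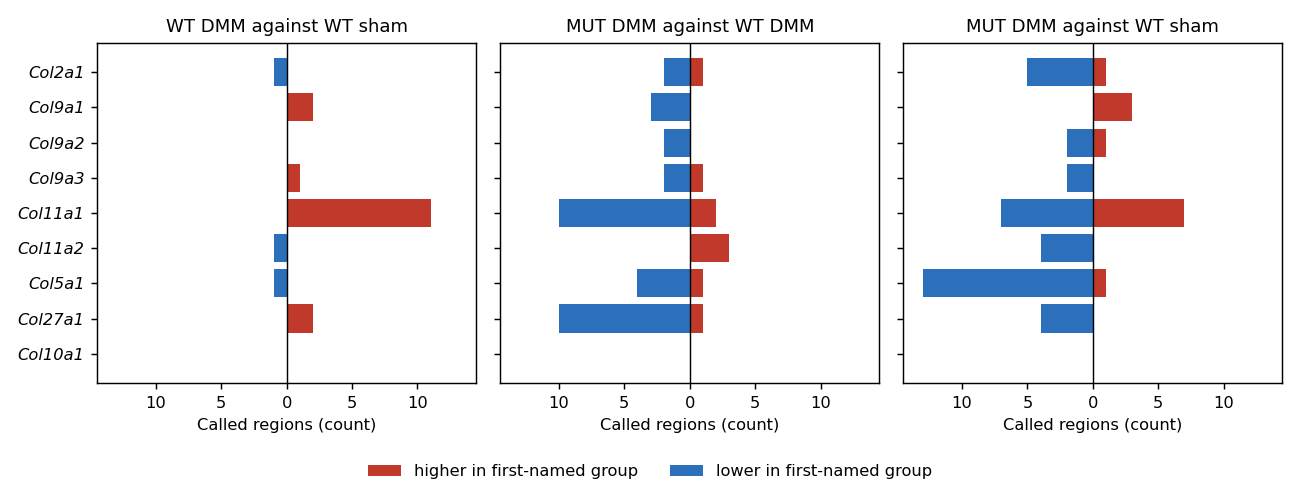
Number of called regions per collagen gene in each comparison, drawn to the right of 0 where the first-named group was higher and to the left where it was lower. In MUT DMM against WT sham the longest bar is that of Col5a1, with 13 lower regions, and Col11a1 has 7 on each side.

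The library values qualify these counts. WT DMM 1 had 0 reads in all 19 regions called between WT DMM and WT sham (background 95.8%), so leaving it out raises each of these WT DMM means 1.5-fold. The libraries of WT DMM and WT sham overlapped in all 19, where 2.71% of all called regions did not overlap. Without WT DMM 1, the remaining libraries did not overlap in 15 of the 19 (background 81.7%). WT DMM 1 also had 0 reads in 30 of the 42 regions called between MUT DMM and WT DMM (background 64.5%), where the libraries did not overlap in 14 of 42 (background 41.9%), or in 31 without WT DMM 1 (background 77.8%). The libraries of MUT DMM and WT sham did not overlap in 46 of 50 (background 82.1%). Leaving out a single library turned the direction of 5 of 19, 11 of 42 and 2 of 50 collagen regions (background 29.8%, 22.6% and 4.38%). The authors' distance to the nearest gene was 0 for 9 of 19, 26 of 42 and 36 of 50 called collagen regions (background 46.3%, 52.1% and 50.9%), 5 of which lay 0.32 to 2.29 kb outside the RefSeq gene bounds.

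A test of the spread between libraries, limma on log2(normalized count + 1) with Benjamini-Hochberg adjustment over each whole table, called 0 collagen regions in WT DMM against WT sham (background 0.0%), where 0 collagen regions had an unadjusted p under 0.05 (background 0.772%). Between MUT DMM and WT DMM limma also called 0 (background 0.0%), and 3 collagen regions had an unadjusted p under 0.05 (background 7.49%). Without WT DMM 1, limma called 14 collagen regions, all higher, in WT DMM against WT sham (background 74.3%) and 0 in MUT DMM against WT DMM. For MUT DMM against WT sham limma called 24 of 50 (background 45.4%), 1 higher, in Col5a1, and 23 lower. An unadjusted p under 0.05 was found in 30 (background 57.4%). MUT DMM B had 0 reads in 27 of the 50, among them all limma calls outside Col5a1 and most at Col5a1. In those limma calls the WT sham mean was below the 28.3 that a count of 0 allows in MUT DMM B. A 0 in MUT DMM B thus could not tell a lower level from an equal one there. Limma still took that 0 as a level of 0, with the same weight as MUT DMM A. When each library was left out in turn, a lone MUT DMM library being taken to vary like the other groups, 17 of these 24 calls were kept every time and 7 were lost at least once. Without MUT DMM A, 15 further collagen regions passed limma, and 5 did without MUT DMM B.

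Type II collagen, the main fibril protein, had 1 lower region after DMM in wild-type joints, and in MUT DMM joints 2 lower and 1 higher against WT DMM and 5 lower and 1 higher against WT sham. All but 2 of its 10 listed regions lay within the RefSeq bounds of Col2a1 (chr15:97975602-98004724); the annotation used gives no exons. The region chr15:97983001-97983200 held 0, 76.04 and 34.36 normalized counts in WT DMM 1 to 3 (0, 57 and 33 reads), against 67.27, 62.95 and 73.65 in WT sham 1 to 3 (210, 88 and 431 reads). WT DMM 2 was above every sham library and only the other WT DMM libraries were below, so the groups overlapped around a fold of 1.85; without WT DMM 1 the WT DMM mean was 55.2. Nearly the same bases, chr15:97983001-97983240, held 100.88 and 18.89 in MUT DMM A and B (137 and 2 reads), against 111.36, 101.88 and 120.11 in WT sham. Both MUT libraries were below the sham libraries, MUT DMM A by a small margin, and the 1.86-fold difference of the means came largely from the 2 reads of MUT DMM B: limma gave an adjusted p of 0.165, and 0.00617 without MUT DMM A.

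A pair of Col2a1 regions stood in both MUT tables, which share the MUT libraries and so are not independent. At chr15:97979021-97979220 MUT DMM A and B held 2 reads and 1 read, or 0.47 and 3.55 normalized counts, against 0, 6.02 and 5.48 in WT DMM 1 to 3. On the scale of the other table these reads were 1.47 and 9.45, against 9.54, 13.89 and 11.37 in WT sham. MUT DMM was lower than both wild-type groups there, overlapping with WT DMM and, by a narrow margin, not with WT sham. The opposite direction was found at the higher-coordinate end of the gene, 98002081 to 98002360, with 103.83 and 85.02 in MUT DMM A and B (141 and 9 reads), against 60.98, 75.25 and 76.84 in WT sham. The groups did not overlap and MUT DMM was 1.33-fold higher, with a limma adjusted p of 0.264. Against WT DMM, chr15:98002061-98002360 held 32.99 and 31.99 in MUT DMM A and B, against 0, 32.34 and 12.18 in WT DMM 1 to 3, so that WT DMM 2 lay between the MUT libraries.

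The Col2a1 region past limma was chr15:97983901-97984180. It held 0.74 and 0 normalized counts in MUT DMM A and B (1 read and 0 reads), against 6.36, 8.1 and 8.32 in WT sham 1 to 3 (12, 7 and 30 reads), with a limma adjusted p of 0.00495. The means were 0.37 in MUT DMM and 7.59 in WT sham, and without MUT DMM B 0.74 in MUT DMM. MUT DMM A was below every sham library; the 0 of MUT DMM B allows a level above all of them. Outside the gene, 7.94 kb beyond its higher-coordinate bound, chr15:98012661-98012920 held 0.23 and 0 in MUT DMM A and B (1 read and 0 reads), against 9.56, 3.01 and 4.26 in WT DMM 1 to 3 (1, 4 and 7 reads). The groups did not overlap at this low depth, and the limma adjusted p was 0.598.

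Type IX collagen, which decorates the fibril surface, is built from the products of Col9a1, Col9a2 and Col9a3, and together these genes had 20 listed regions. After DMM in wild-type joints 3 regions were called, all higher (background 93.2%), 2 at Col9a1 and 1 at Col9a3. The Col9a1 region chr1:24187101-24187380 held 0, 16.01 and 9.37 normalized counts in WT DMM 1 to 3 (0, 12 and 9 reads), against 1.28, 2.86 and 2.39 in WT sham (4, 4 and 14 reads). WT DMM 2 and 3 were both above every sham library, and WT DMM 1 had no read. At Col9a3, chr2:180617961-180618180 held 0, 4.0 and 13.54 in WT DMM 1 to 3 (0, 3 and 13 reads), against 2.56, 2.15 and 1.37 in WT sham. This difference rested on WT DMM 3: the difference of means was 3.82 normalized counts with it and -0.027 without it.

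Against WT DMM, type IX regions of MUT DMM were lower in 7 of 8 calls (background 64.7%). These were 3 at Col9a1, 2 at Col9a2 and 2 at Col9a3. Most of them were read by few fragments. At chr1:24238161-24238420 in Col9a1, MUT DMM A and B held 0.47 and 3.55 normalized counts (2 reads and 1 read), against 0, 0.75 and 9.13 in WT DMM 1 to 3 (0, 1 and 15 reads). WT DMM 3 alone was above the MUT libraries, and the difference of means, -1.283, became 1.635 without WT DMM 3 and 0.257 without MUT DMM A. At chr4:121037041-121037280, 2.29 kb before Col9a2, MUT DMM A and B held 0.94 and 3.55, against 0, 3.01 and 15.22 in WT DMM 1 to 3, and without WT DMM 3 the difference of -3.832 became 0.74. The other Col9a1 region that turned, chr1:24228441-24228680, gave 2.475 in MUT DMM and 2.255 in WT DMM without WT DMM 3.

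Col9a3 held the type IX region whose libraries did not overlap between MUT DMM and WT DMM. In chr2:180604521-180604900, MUT DMM A and B held 1.17 and 0 normalized counts (5 and 0 reads), against 9.56, 6.77 and 10.35 in WT DMM 1 to 3 (1, 9 and 17 reads). Every WT DMM library was above both MUT libraries, the mean was 0.585 ± 0.827 in MUT DMM and 8.89 ± 1.88 in WT DMM (SD, n = 2 and 3 libraries), and the limma adjusted p was 0.598. The called higher region of Col9a3, chr2:180609301-180609520, held 23.87 and 17.77 in MUT DMM A and B, against 0, 21.81 and 10.35 in WT DMM 1 to 3. WT DMM 2 lay between the MUT libraries. A region at the lower-coordinate end of the gene, chr2:180598181-180598500, was listed but not called. The lower region chr2:180609961-180610240 gave 3.55 in MUT DMM B alone against a WT DMM mean of 3.38, so its direction turned without MUT DMM A.

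Against WT sham, 3 of 3 Col9a1 regions were higher in MUT DMM (background 43.2%), as was 1 of 3 Col9a2 regions. At Col9a3, 2 of 2 regions were lower (background 56.1%). With so few regions per gene, these counts do not show a difference between the genes. The libraries of the groups did not overlap in any of the 8 (82.1% of all called regions of the table did not). At chr1:24247721-24247960 in Col9a1, MUT DMM A and B held 64.8 and 56.68 normalized counts (88 and 6 reads), against 39.24, 39.36 and 36.06 in WT sham 1 to 3 (74, 34 and 130 reads). Both MUT libraries were higher, 1.59-fold by the means, and the limma adjusted p was 0.108. The region chr1:24159261-24159540, 18.05 kb before Col9a1, held 44.92 and 94.47 in MUT DMM A and B, against 40.83, 37.05 and 34.95 in WT sham, and Col9a2 had a similar one at chr4:121044381-121044600, with 61.12 and 113.37 against 47.72, 42.84 and 48.82. In both, MUT DMM B was far above MUT DMM A, on 10 and 12 reads, and the limma adjusted p-values were 0.152 and 0.118, or 0.0159 and 0.0161 without MUT DMM A. The remaining Col9a1 region, chr1:24189801-24190040, rested on 4 and 2 reads in MUT DMM, at 2.95 and 18.89, against 2.12, 0 and 0.83 in WT sham.

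The 4 lower type IX regions were those past limma (4 of 8, background 45.4%). In Col9a2, chr4:121051641-121051920, and 0.32 kb beyond it, chr4:121055641-121055840, had 0 reads in both MUT libraries, against 4 to 16 and 3 to 14 reads in the sham libraries (4.44 to 5.83 and 3.47 to 5.3 normalized counts). The sham libraries were all above the 2.21 that a count of 0 allows in MUT DMM A and all below the 28.3 it allows in MUT DMM B, and the limma adjusted p-values were 0.00472 and 0.00477. In Col9a3, chr2:180617701-180618080 held 0.74 and 0 in MUT DMM A and B (1 read and 0 reads), against 10.61, 9.26 and 8.88 in WT sham (20, 8 and 32 reads), with a limma adjusted p of 0.00472. The means were 0.37 in MUT DMM and 9.58 in WT sham, and without MUT DMM B, whose 0 allows up to 28.3, 0.74 in MUT DMM. It shares 120 bases with the region called higher in WT DMM against WT sham. The last, chr2:180620021-180620240, had 0 reads in both MUT libraries, against 7, 8 and 24 in WT sham, with a limma adjusted p of 0.00575.

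**Figure D2:**
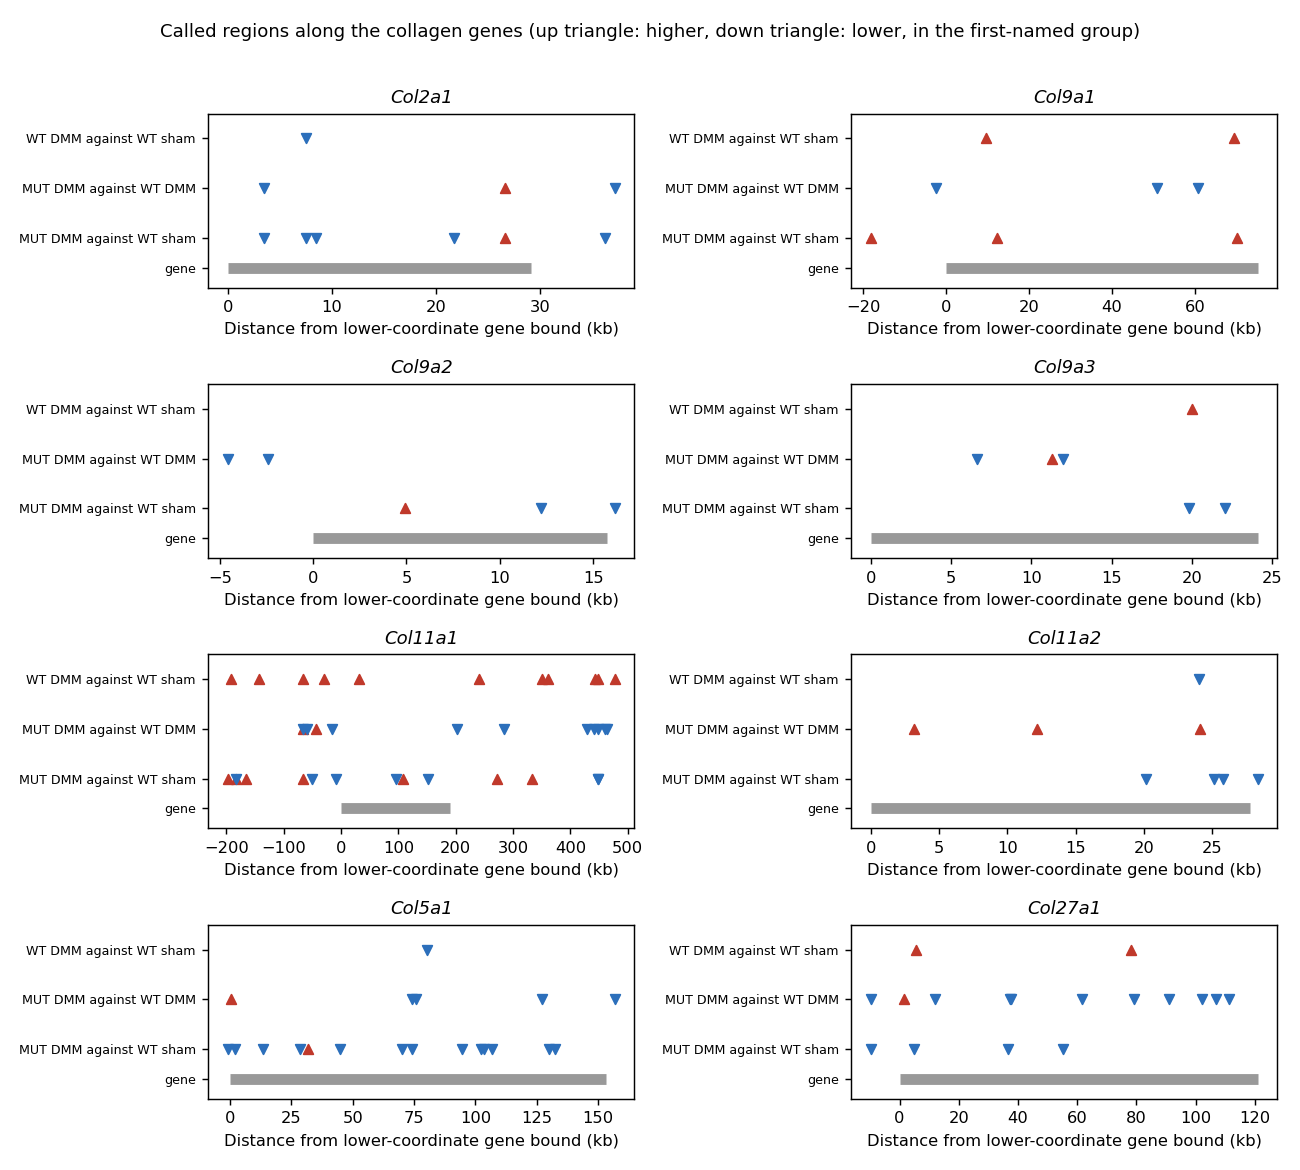
Called regions along each gene with any, placed by the distance in kb from the lower-coordinate RefSeq bound, with 1 line per comparison and the gene as a grey bar. Most Col11a1 marks lie outside its bar, while those of Col5a1 and Col27a1 are spread along the gene.

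Type XI collagen sits within the fibril, and its genes Col11a1 and Col11a2 differed in where their regions lay. Of the 38 Col11a1 regions only 4 were within its RefSeq bounds (chr3:114030479-114220756), and the rest reached up to 287.4 kb beyond them, so the nearest-gene rule gave Col11a1 most of its regions. In WT DMM against WT sham, 11 regions were called at Col11a1, all higher (background 93.2%), and 1 was listed but not called. Their mean was 5.0 to 13.5 normalized counts in WT DMM and 1.77 to 6.04 in WT sham, below the 47.0 that a count of 0 allows in WT DMM 1. The one inside the gene, chr3:114061401-114061680, was among 4 whose direction turned without WT DMM 3, with 2.0 in WT DMM and 2.29 in WT sham then. The other 3 were chr3:113838881-113839160, chr3:114380101-114380380 and chr3:114391501-114391780, with differences of -1.66, -0.837 and -2.372 without WT DMM 3.

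The Col11a1 region of smallest adjusted p in that comparison was chr3:114472521-114472760, 251.76 kb beyond the gene. It held 0, 9.34 and 22.91 in WT DMM 1 to 3 (0, 7 and 22 reads), against 3.84, 3.58 and 3.59 in WT sham (12, 5 and 21 reads), and the adjusted p in the authors' deposited table was 0.000318. WT DMM 2 and 3 were above the sham libraries, which were close to each other. At chr3:113964521-113964720, 65.76 kb before the gene, WT DMM 1 to 3 held 0, 12.01 and 16.66, against 1.28, 5.01 and 2.91 in WT sham. The overlapping region chr3:113964601-113964980 was called lower in MUT DMM against WT DMM, with 8.42 and 7.11 in MUT DMM A and B (36 and 2 reads), against 0, 26.33 and 40.79 in WT DMM 1 to 3 (0, 35 and 67 reads). WT DMM 2 and 3 were above the MUT libraries here and WT DMM 1 was below; both comparisons use the same WT DMM libraries.

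Against WT DMM, MUT DMM had at Col11a1 10 lower (background 64.7%) and 2 higher calls, none inside the gene. The libraries did not overlap in 3 of the lower and in both of the higher (5 of 12, background 41.9%). At chr3:114232901-114233140, 12.14 kb beyond the gene, MUT DMM A and B held 11.23 and 14.22 normalized counts (48 and 4 reads), against 19.12, 18.8 and 24.35 in WT DMM 1 to 3 (2, 25 and 40 reads). All WT DMM libraries were above both MUT libraries, and MUT DMM was 1.63-fold lower by the means. The other 2 lower ones, chr3:113970761-113970960 and chr3:114014241-114014500, held 1.87 and 1.4 in MUT DMM A and 0 in MUT DMM B, against 2.44 to 19.12 in WT DMM, whose highest value was 2 reads of WT DMM 1. Directions turned at chr3:114314001-114314280, chr3:114459201-114459540, chr3:114491481-114491720 and chr3:114495101-114495340 without WT DMM 3, to differences of 0.245, 1.315, 0.995 and 1.26, and at the last also without MUT DMM A, to 0.413.

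The higher Col11a1 region chr3:113964041-113964260 was listed against both wild-type groups. MUT DMM A and B had 24 reads and 1 read, or 5.62 and 3.55 normalized counts, against 0, 0 and 1.22 in WT DMM 1 to 3 (0, 0 and 2 reads). On the other table's scale MUT DMM held 17.67 and 9.45, against 9.01, 1.16 and 0.83 in WT sham 1 to 3 (17, 1 and 3 reads). The groups did not overlap in either comparison, although WT sham 1 came close to MUT DMM B, and the limma adjusted p-values were 0.598 and 0.102, the second 0.0232 without WT sham 1. The other higher region against WT DMM, chr3:113986401-113986620, held 24.57 and 28.43 in MUT DMM (105 and 8 reads), against 0, 13.54 and 11.57 in WT DMM.

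Against WT sham, Col11a1 had 7 higher and 7 lower regions, and limma called 5 of the lower and 0 of the higher (background 45.4%), 1 of the 5, chr3:113979821-113980080, not without WT sham 1, 2 or 3 (adjusted p 0.0717, 0.0868 and 0.0716). The libraries were free of overlap in all 7 lower and in 4 of the 7 higher (background 82.1%). The lower region of smallest adjusted p, inside the gene at chr3:114125681-114126060, had 0 reads in both MUT libraries, against 34, 7 and 19 reads in WT sham 1 to 3 (18.03, 8.1 and 5.27 normalized counts) and a limma adjusted p of 0.00719. All sham libraries were above the 2.21 that a count of 0 allows in MUT DMM A. At chr3:114478781-114478980, which was lower against both wild-type groups, MUT DMM A and B held 13.25 and 18.89 (18 and 2 reads), against 28.1, 37.05 and 30.79 in WT sham, and 4.21 and 7.11 on the other scale, against 0, 13.54 and 19.48 in WT DMM. MUT DMM lay below all 3 sham libraries, with a limma adjusted p of 0.065 (0.042 without MUT DMM B), and below WT DMM 2 and 3 but not WT DMM 1. The neighbouring chr3:114479281-114479520 held 9.57 and 0 in MUT DMM, against 23.86, 31.26 and 29.68 in WT sham, with a limma adjusted p of 0.0564 (0.00553 without MUT DMM A, 0.0287 without MUT DMM B), and shares 140 bases with chr3:114479181-114479420, which was called higher in WT DMM than in WT sham.

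The 2 Col11a1 regions whose direction against WT sham turned without a library were chr3:113846741-113847000 and chr3:114138501-114138700. The first held 147.27 and 75.58 in MUT DMM A and B, against 75.3, 98.41 and 83.22 in WT sham, and the difference of means was -10.063 without MUT DMM A. The second held 48.6 and 151.15, against 59.39, 45.15 and 47.71 in WT sham, and the difference was -2.15 without MUT DMM B. In both, the MUT libraries lay on different sides of sham libraries.

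Col11a2 had 1 lower region after DMM in wild-type joints, 3 higher regions in MUT DMM against WT DMM, and 4 lower regions in MUT DMM against WT sham. At chr17:34062841-34063080 WT DMM 1 to 3 held 0, 64.03 and 56.23 normalized counts (0, 48 and 54 reads), against 70.47, 62.23 and 65.96 in WT sham (220, 87 and 386 reads). WT DMM 2 lay among the sham libraries, WT DMM 3 below them, and the mean of WT DMM, 40.1 ± 34.9 (SD, n = 3), included the 0 of WT DMM 1, with 66.2 ± 4.13 in WT sham (SD, n = 3); without that library the WT DMM mean was 60.13. The overlapping chr17:34062961-34063160 was called higher in MUT DMM, with 37.44 and 31.99 in MUT DMM A and B, against 0, 37.61 and 29.22 in WT DMM 1 to 3. The MUT libraries lay between WT DMM 2 and 3.

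At chr17:34042001-34042240, 3.2 kb inside Col11a2, the groups did not overlap: MUT DMM A and B held 13.57 and 14.22 (58 and 4 reads), against 0, 9.03 and 1.83 in WT DMM 1 to 3 (0, 12 and 3 reads), with a limma adjusted p of 0.624. The third higher region, chr17:34050981-34051200, held 32.05 and 24.88 in MUT DMM, against 0, 38.36 and 18.26 in WT DMM. Against WT sham the lower region of highest level was chr17:34063901-34064280, with 233.42 and 37.79 in MUT DMM A and B (317 and 4 reads), against 266.19, 251.22 and 248.55 in WT sham 1 to 3 (502, 217 and 896 reads). MUT DMM A was only slightly below the sham libraries, and the 1.88-fold difference of means came mainly from MUT DMM B. At chr17:34058941-34059180 MUT DMM A and B held 33.87 and 0 (46 and 0 reads), against 54.62, 55.57 and 50.76 in WT sham, with a limma adjusted p of 0.123, or 0.00553 without MUT DMM A. Limma called chr17:34067161-34067360, 0.48 kb beyond the gene, with 0 reads in both MUT libraries, against 8, 12 and 8 reads in WT sham and an adjusted p of 0.0336; the call was lost without MUT DMM A, MUT DMM B or WT sham 1, at 0.097, 0.124 and 0.0932.

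Type V collagen was covered by Col5a1, and in MUT DMM against WT sham this gene had the most called regions of any gene here that lay within gene bounds. Col5a1 is also long, at 153.13 kb, and of the genes here only Col11a1, at 190.28 kb, is longer. The counts were not scaled by gene length. There, 13 regions were lower (background 56.1%) and 1 higher in MUT DMM. The libraries did not overlap in any of the 14 (82.1% of all called regions did not). Limma called 10 of the 14 (background 45.4%), 9 lower and 1 higher. The lower region of smallest adjusted p was chr2:27888061-27888540, 1.92 kb inside the gene. It held 25.04 and 18.89 normalized counts in MUT DMM A and B (34 and 2 reads), against 63.1, 91.46 and 87.1 in WT sham 1 to 3 (119, 79 and 314 reads). Both MUT libraries were below every sham library, by 3.67-fold in the means, and the limma adjusted p was 0.0114. The adjusted p in the authors' deposited table was 3.26e-05.

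Lower Col5a1 levels recurred along the gene at higher and at lower read depth. At chr2:27988401-27988740 MUT DMM A and B held 29.45 and 18.89 (40 and 2 reads), against 64.69, 54.41 and 72.96 in WT sham, with a limma adjusted p of 0.0287, or 0.0548 to 0.0888 without MUT DMM B or any of the sham libraries. At chr2:27993041-27993360 MUT DMM held 3.68 and 0 (5 and 0 reads), against 81.66, 15.05 and 10.26 in WT sham 1 to 3, where WT sham 1 was far above the other sham libraries and the limma adjusted p was 0.055; without WT sham 1 the sham mean was 12.655 in place of 35.7. Limma calls were also lost without some libraries at chr2:27914921-27915120 (MUT DMM B or WT sham 1, 0.071 and 0.0555) and chr2:27956281-27956560 (WT sham 1, 2 or 3, 0.116, 0.142 and 0.123). Both MUT libraries had 0 reads in 4 of the 13 lower regions, where WT sham averaged 6.47 to 7.88. Those sham means are above the limit of 2.21 for MUT DMM A and below that of 28.3 for MUT DMM B.

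The higher Col5a1 region, chr2:27918121-27918400, lay 31.88 kb inside the gene, between lower ones. MUT DMM A and B held 19.88 and 9.45 (27 reads and 1 read), against 3.18, 2.32 and 2.77 in WT sham 1 to 3 (6, 2 and 10 reads). Both MUT libraries were above all sham libraries, the log2 ratio of means was 2.41, the limma adjusted p was 0.0159, and the adjusted p in the authors' deposited table was 2.57e-07. With all libraries it was the only collagen region higher in MUT DMM than in WT sham that passed limma, and this call was lost without WT sham 1, 2 or 3, at limma adjusted p-values of 0.0517, 0.0709 and 0.0649. Without MUT DMM A, 8 higher regions passed limma. MUT DMM B contributed a single read to the region.

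**Figure D3:**
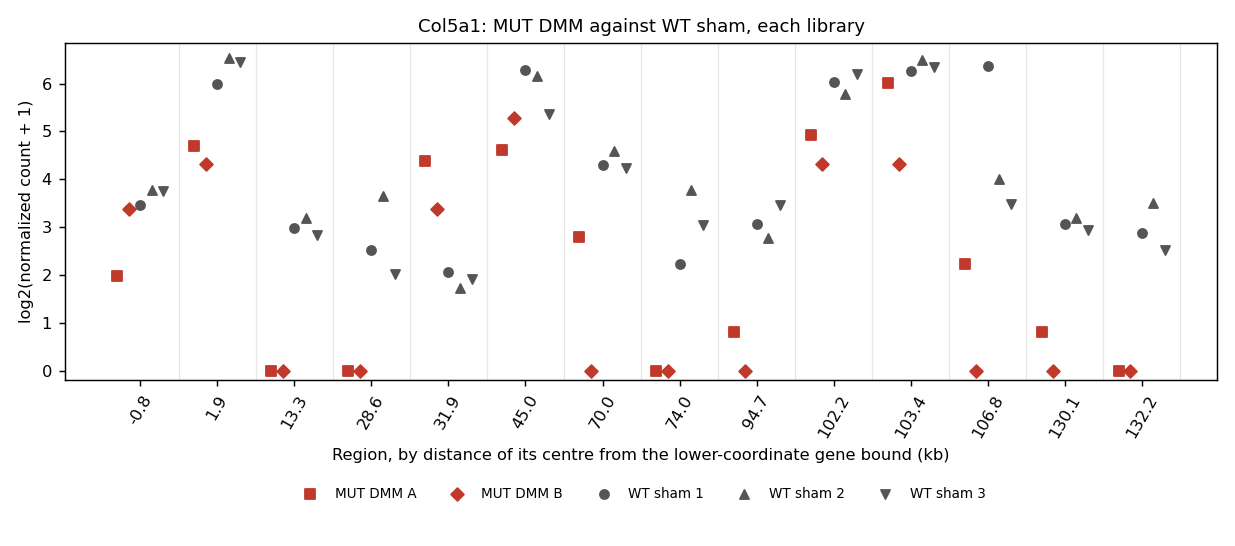
Level of each library, as log2(normalized count + 1), in the 14 called Col5a1 regions of MUT DMM against WT sham, ordered by the distance of their centres from the lower-coordinate gene bound in kb. In 13 regions both MUT DMM libraries lie below the 3 WT sham libraries, and at 31.9 kb they lie above.

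Against WT DMM, MUT DMM had 4 lower Col5a1 regions (background 64.7%) and 1 higher. The higher one, chr2:27886761-27886980, had its centre 0.49 kb inside the gene from its lower-coordinate bound. MUT DMM A and B held 25.27 and 17.77 (108 and 5 reads), against 0, 22.57 and 7.91 in WT DMM 1 to 3 (0, 30 and 13 reads), so WT DMM 2 lay between the MUT libraries and the mean of WT DMM included the 0 of WT DMM 1. Of the lower ones, chr2:27960381-27960600 was also lower against WT sham, where the overlapping chr2:27960221-27960500 had 0 reads in both MUT libraries, against 7, 11 and 26 in WT sham and a limma adjusted p of 0.00897, or 0.0504 without MUT DMM B. Against WT DMM it held 0.23 and 0 in MUT DMM (1 read and 0 reads), against 9.56, 1.5 and 6.09 in WT DMM 1 to 3 (1, 2 and 10 reads). The groups did not overlap there, nor at chr2:28043061-28043320, 3.55 kb beyond the gene, with 0.94 and 0 in MUT DMM, against 9.56, 1.5 and 6.7 in WT DMM.

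The remaining lower Col5a1 regions against WT DMM depended on a library. At chr2:27962081-27962300 the difference of means was 0.74 without WT DMM 3, and at chr2:28013281-28013480 it was 0.22 without MUT DMM A. In wild-type joints after DMM, Col5a1 had a single call, the lower region chr2:27966601-27966800, with 0, 25.35 and 54.15 in WT DMM 1 to 3 (0, 19 and 52 reads), against 46.45, 47.21 and 52.46 in WT sham. WT DMM 3 was above every sham library, and without WT DMM 1 the WT DMM mean was 39.75.

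Type XXVII collagen, encoded by Col27a1, had its largest number of calls in MUT DMM against WT DMM. Of these, 10 were lower (background 64.7%) and 1 higher. The lower region of smallest adjusted p, and the longest, was chr4:63292961-63293620 within the gene. It held 6.08 and 7.11 normalized counts in MUT DMM A and B (26 and 2 reads), against 19.12, 17.3 and 29.22 in WT DMM 1 to 3 (2, 23 and 48 reads). All 3 WT DMM libraries were above both MUT libraries, the means were 6.6 ± 0.728 in MUT DMM and 21.9 ± 6.42 in WT DMM (SD, n = 2 and 3), and the adjusted p was 1.38e-06 in the authors' deposited table. The limma adjusted p was 0.656.

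The higher Col27a1 region, chr4:63215301-63215760, covers the end of the printed window, overlapping it by 111 bases and touching both capitalised sites. MUT DMM A and B held 70.66 and 60.42 (302 and 17 reads), against 9.56, 49.64 and 37.74 in WT DMM 1 to 3 (1, 66 and 62 reads). The MUT libraries were above every WT DMM library, with means of 65.5 ± 7.24 in MUT DMM and 32.3 ± 20.6 in WT DMM (SD, n = 2 and 3), a fold of 2.03. The adjusted p was 0.0236 in the authors' deposited table, and limma gave 0.729. Which of the CCGG sites in the region carried the reads is not given by the tables.

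**Figure D4:**
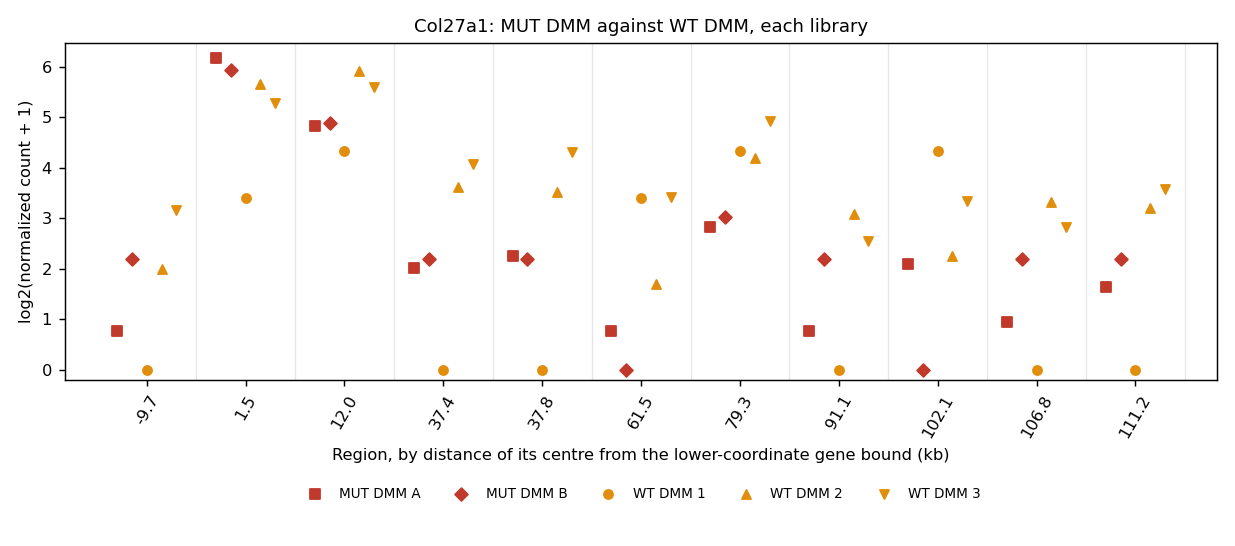
Level of each library, as log2(normalized count + 1), in the 11 called Col27a1 regions of MUT DMM against WT DMM, ordered by the distance of their centres from the lower-coordinate gene bound in kb. The region at 1.5 kb is the one with both MUT DMM libraries above all 3 WT DMM libraries, and WT DMM 1 is at 0 in 6 of the regions.

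Among the other lower Col27a1 regions, the groups did not overlap at chr4:63275301-63275680, with 0.7 and 0 in MUT DMM A and B (3 and 0 reads), against 9.56, 2.26 and 9.74 in WT DMM 1 to 3 (1, 3 and 16 reads). They also did not overlap at chr4:63315961-63316240, with 3.28 and 0 in MUT DMM, against 19.12, 3.76 and 9.13 in WT DMM, where MUT DMM A and WT DMM 2 were close. In both, the largest or near-largest value of WT DMM was 1 read or 2 reads of WT DMM 1. At 9.53 kb before the gene's bounds, chr4:63204221-63204480 held 0.7 and 3.55 in MUT DMM (3 reads and 1 read), against 0, 3.01 and 7.91 in WT DMM, and the difference of -1.515 became 0.62 without WT DMM 3.

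The overlapping upstream region chr4:63204141-63204360 was lower in MUT DMM than in WT sham as well, with 0 reads in both MUT libraries, against 12, 6 and 14 reads (6.36, 6.95 and 3.88 normalized counts) in WT sham 1 to 3 and a limma adjusted p of 0.00472. Every Col27a1 call against WT sham was lower, 4 in all (background 56.1% of listed regions), and limma called 3 of them (background 45.4%). One of these, chr4:63269061-63269300, held 0.74 and 0 in MUT DMM A and B (1 read and 0 reads), against 5.83, 12.73 and 8.88 in WT sham, with a limma adjusted p of 0.00693. The one that limma did not call, chr4:63218701-63219080, held 1.47 and 9.45 (2 reads and 1 read), against 5.83, 23.15 and 18.03 in WT sham, and WT sham 1 lay between the MUT libraries. Its adjusted p was 0.000131 in the authors' deposited table and 0.168 by limma. The last, chr4:63250621-63250820, had 0 reads in both MUT libraries, against 9, 3 and 17 in WT sham.

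After DMM in wild-type joints Col27a1 had 2 higher regions. At chr4:63219601-63219800 WT DMM 1 to 3 held 0, 12.01 and 9.37 (0, 9 and 9 reads), against 1.6, 4.29 and 1.54 in WT sham (5, 6 and 9 reads). At chr4:63292041-63292260 they held 0, 8.0 and 11.45, against 1.28, 2.15 and 2.56 in WT sham. In both, WT DMM 2 and 3 were above all sham libraries and WT DMM 1 had no read. Type X collagen, the product of Col10a1 in hypertrophic chondrocytes, had no listed region in any table, and its window before the gene start held no CCGG; the tables do not say whether its locus was unread or unchanged.

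**Figure D5:**
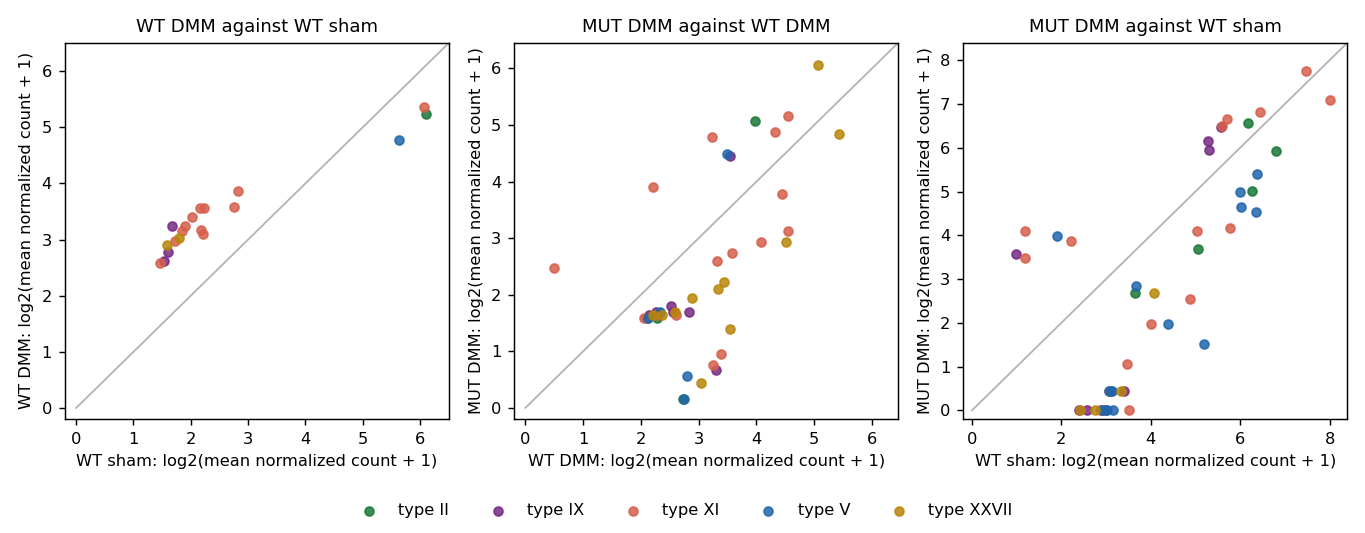
Mean level of the first-named group against that of the second-named group in each called collagen region, as log2(mean normalized count + 1), coloured by collagen type, with the line of equal levels in grey. In WT DMM against WT sham the 3 regions below the line are those with the highest sham means, 48.7 to 68.0 normalized counts.

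Direction varied with level, but the level used is the mean of the second-named group, which itself enters the direction. Only regions with a window p of at most 0.0001 were listed, and a fall from a low level has little room to reach that. The shares by level therefore do not show that direction depends on level. In WT DMM against WT sham, the 16 higher collagen regions had sham means of 1.77 to 6.04 normalized counts, and the 3 lower ones, in Col2a1, Col11a2 and Col5a1, had sham means of 48.7 to 68.0. All 9 calls at or below the table's median sham mean of 2.85 were higher, as were all 21771 calls of the table there. Above it 7 of 10 were higher, beside 86.8% of all calls. Between MUT DMM and WT DMM, 3 of 29 collagen calls at or below the median WT DMM mean of 10.06 were higher, beside 16.7% of all, and 6 of 13 above it, beside 52.6%. For MUT DMM against WT sham the counts were 5 of 25 at or below 10.9 and 8 of 25 above, beside 38.5% and 48.5%. Read depth was low in many of these regions: MUT DMM B had at most 1 read in 27 of the 42 called regions of MUT DMM against WT DMM and in 32 of the 50 of MUT DMM against WT sham (background 46.1% and 54.8%), and 13 of the 37 lower regions of MUT DMM against WT sham had 0 reads in both MUT libraries (35.1%, background 37.6%). The part of depth in the directions was not tested.

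Other genes of the same pathway were counted in the same way. The 35 other collagen genes had 95 higher and 10 lower calls in WT DMM against WT sham, 40 and 95 in MUT DMM against WT DMM, and 69 and 108 in MUT DMM against WT sham. For 31 genes that modify, fold, trim or cross-link collagen the counts were 37 and 6, 37 and 49, and 32 and 58. Higher calls thus made up 90.5%, 29.6% and 39.0% of calls for the other collagens. The shares were 86.0%, 43.0% and 35.6% for the 31 genes, beside 93.4%, 34.6% and 43.5% of all calls. The median of log2((mean + 1)/(mean + 1)) over the listed regions of the cartilage collagens was 1.15, -0.72 and -1.72 in the 3 tables, beside 1.13, -0.63 and -0.96 over all regions, 1.14, -0.7 and -1.18 for the other collagens and 1.08, -0.52 and -1.42 for the collagen assembly genes.

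Loci of marker genes were counted for reference, since DNA of other cell types in dissected cartilage cannot be told apart from that of chondrocytes here. The chondrocyte list held 7 genes, Acan and Sox9 among them, of which 2, 3 and 5 had a listed region in the 3 tables. Which of the 7 carried the calls is not given here. Chondrocyte loci had 3 higher and 0 lower calls in WT DMM against WT sham. They had 4 and 1 in MUT DMM against WT DMM, and 6 and 1 in MUT DMM against WT sham. Bone loci had 5 and 0, 3 and 1, and 3 and 2. Blood loci had 7 and 0, 2 and 6, and 9 and 9. Synovial lining and fibroblast loci had 11 and 0, 4 and 8, and 4 and 4. Higher calls made up 93.4%, 34.6% and 43.5% of all calls in the 3 tables. The marker counts are to be read beside those shares, and each list had only 3 to 18 calls per table. The part of cell composition in the collagen results was not tested.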

How the data were processed

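The authors deposited 3 tables of regions, 1 per comparison, on mm10, which has the coordinates of GRCm38. Per the submitters' processing notes the tools were HISAT2 2.1.0, Trim Galore 0.5.0, bcl2fastq 2.20.0, bedtools and SAMtools; the sources used here name neither the caller nor its test. Per the file headers, each region has p-values and adjusted p-values, the normalized count of each library, and a mean signal per group. Regions were listed only with a window p-value of at most 0.0001. The sources used here give no scaling factor; each library's values were whole multiples of a step within 0.02 normalized counts, and a step was read as 1 read. No count test was run, because the deposited counts are normalized and listed only for selected regions.

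Direction came from the deposited group means, which count MUT DMM A under both entries, and means ± SD from distinct libraries. Calls used the authors' adjusted p under 0.05. Spread was tested with limma 3.58.1 (R 4.3.3) on log2(normalized count + 1), each table fitted whole. The method was checked on simulated data that left out WT DMM 1 and set a small spread between libraries beyond counting error. The check thus covers neither fits with that library nor regions whose libraries vary more widely. Since limma sees only regions already selected by the authors' p, its calls are not a genome-wide result. Limma p-values measure the spread between libraries and not between animals. Since the authors' test is not named, the spread that their p-values measure is not known. PCR reads carried no molecular identifiers. Gene bounds and promoter windows came from RefSeq tables of GRCm38.p6; tables were handled in Python 3.11.15 with pandas 2.3.3. Values in every library were given for the region of smallest adjusted p per gene, direction and table, for up to 3 regions per gene and table whose groups did not overlap, and for regions that overlap between tables; a few others were added after their values were seen. The members, lists and rules were chosen with earlier results of these data known.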

Additional observations from a re-analysis of the deposited data

How the results depend on the processing

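No paired analysis was possible because the joined cells carry no replicate numbers. Taking only regions within RefSeq gene bounds plus 5 kb left 6 higher calls in WT DMM against WT sham in place of 16, and 6 in MUT DMM against WT sham in place of 13, since most Col11a1 regions lie farther away. When each library was left out in turn, the number past limma in WT DMM against WT sham was 0 to 14. The 14 was without WT DMM 1. In MUT DMM against WT sham it was 19 to 38, 38 being without MUT DMM A. With all libraries there, it was 6, in place of 24, when regions of mean under 5 normalized counts were dropped before the fit. That filter left 32 of the 50 collagen regions. Most of the 24 had a mean under 5 over the libraries, so they were dropped and not tested again. Why the number fell further among the regions kept was not tested. Leaving out libraries in turn, the difference of means ranged from -2.93 to 1.635 at Col9a1 chr1:24238161-24238420, from -6.87 to 0.74 at Col9a2 chr4:121037041-121037280 and from -3.335 to 0.62 at Col27a1 chr4:63204221-63204480, all in MUT DMM against WT DMM, and from -0.027 to 6.743 at Col9a3 chr2:180617961-180618180 in WT DMM against WT sham. The other alternatives (stricter adjusted p, every listed region, pseudocounts of 0.5 and 5, median rescaling, repeated entries) kept each count within 1.5 times. Depth limits the results, since WT DMM 1 was nearly empty and MUT DMM B shallow.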
